A study of Mus musculus with 105 samples.

Results

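The Armcx and Gprasp genes studied here are Armcx1, Armcx6, Armcx3, Armcx2, Armcx5, Gprasp1 and Gprasp2, taken by symbol as 7 of the 52016 genes in the bulk count tables. All were measured in female mouse embryonic stem cells (mESCs) that carry a C57BL6/J (B6) and a Cast/EiJ (Cast) X chromosome, sampled at days 0, 1, 2, 3 and 4 after withdrawal of 2i/LIF. In TX1072, clone A3, X inactivation can strike either chromosome. In the other lines one chromosome lacks 773 kb that hold Xist, the X-inactivation centre (Xic), so that Xist RNA can come from the intact one only. TXdXicB6, clone TxdXic_A1, carries the deletion on B6 and its inactive X (Xi) is Cast. TXdXicCast, clone TxdXic_A6, carries it on Cast and its Xi is B6. The deletion lines were made from TX1072, whose B6 copy of Xist has a doxycycline-responsive promoter and which has an rtTA insertion at Rosa26. TXdXicB6 lost that promoter with the deleted stretch, and TXdXicCast still holds it. Each line is 1 clone, so a difference between lines cannot be told apart from a difference between clones. It also cannot be told apart from a difference between the B6 and Cast sequences, because the strain of the Xi changes with the line. Each line and day has 3 bulk libraries, started on different days, and the TX1072 cells were also profiled singly, with 1 culture per day. Bulk counts summed to between 19827011 and 39628784 per library in TX1072, 20246434 and 49962859 in TXdXicB6, and 16906263 and 57920260 in TXdXicCast.

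Armcx proteins hold armadillo repeats and several sit at the outer membrane of mitochondria, where they take part in the movement and clustering of these organelles, above all in neurons. Gprasp proteins bind the tails of G protein-coupled receptors and steer internalised receptors towards lysosomes. The genes are relatives that spread by retrotransposition and local duplication on the X chromosome of placental mammals. Silencing of the X is set off by Xist RNA, which coats the chromosome in cis.

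On mm10 the genes fall into a proximal and a distal block along chromosome X, spanning 1126.77 kb. Armcx1 (ENSMUSG00000033460) lies at chrX:134717963-134721917 on the plus strand, followed by Armcx6 (ENSMUSG00000050394) at chrX:134748461-134751417 on the minus strand. Armcx3 (ENSMUSG00000049047) lies at chrX:134756595-134761455 on the plus strand and Armcx2 (ENSMUSG00000033436) at chrX:134804145-134809221 on the minus strand. After a gap of 933.5 kb come Armcx5 (ENSMUSG00000072969) at chrX:135742733-135747322, Gprasp1 (ENSMUSG00000043384) at chrX:135742733-135803474 and Gprasp2 (ENSMUSG00000072966) at chrX:135839034-135844730, all on the plus strand. Armcx5 and Gprasp1 start at the same base and share 456 exonic bases, and Gprasp2 shares 376 exonic bases with its neighbour Bhlhb9. Reads in these shared bases cannot be assigned to one gene, and the values of Armcx5, Gprasp1 and Gprasp2 are uncertain to that extent. The proximal block lies 31.2 to 31.3 Mb and the distal block 32.3 to 32.4 Mb from Xist.

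The promoters show which genes share a start and which share sequence, and RefSeq (GRCm38.p6) start sites were matched for 6 of the 7 genes. Each stretch below runs from 120 bases before to 30 bases after the start on the gene's own strand. Capitals mark CACGTG, an E-box, and TGACGT, the core of a cyclic AMP response element. Armcx1 on the plus strand (chrX:134717818-134717967) and Armcx6 on the minus strand (chrX:134751390-134751539) are shown because they alone among the 6 hold both.
Armcx1: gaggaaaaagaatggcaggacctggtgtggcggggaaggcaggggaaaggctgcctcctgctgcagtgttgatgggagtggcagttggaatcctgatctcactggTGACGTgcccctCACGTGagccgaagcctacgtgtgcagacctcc
Armcx6: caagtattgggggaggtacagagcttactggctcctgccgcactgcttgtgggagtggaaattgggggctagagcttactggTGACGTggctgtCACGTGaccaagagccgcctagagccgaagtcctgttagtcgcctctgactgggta
Armcx2 on the minus strand (chrX:134809192-134809341) holds neither, and Gprasp1 on the plus strand (chrX:135742572-135742721) has an identical window to that of Armcx5, with a single TGACGT.
Armcx2: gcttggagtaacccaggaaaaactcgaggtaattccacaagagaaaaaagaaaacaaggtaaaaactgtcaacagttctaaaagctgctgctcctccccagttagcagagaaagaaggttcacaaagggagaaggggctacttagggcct
Gprasp1: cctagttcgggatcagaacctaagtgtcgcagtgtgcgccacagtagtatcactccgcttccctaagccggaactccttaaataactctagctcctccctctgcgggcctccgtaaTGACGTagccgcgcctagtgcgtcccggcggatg
Gprasp2 on the plus strand (chrX:135838914-135839063) is shown with a 60-base run in capitals that also stands in the Bhlhb9 window.
Gprasp2: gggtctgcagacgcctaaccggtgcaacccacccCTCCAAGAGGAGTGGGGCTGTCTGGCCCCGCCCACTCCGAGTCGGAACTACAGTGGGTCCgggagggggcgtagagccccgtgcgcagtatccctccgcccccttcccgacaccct

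Letters were counted on both strands in windows of 250 bases before to 50 after the start. CACGTG stood in 7.15% and TGACGT in 7.51% of 32817 promoter windows, and 0.771% held both. The 12-base run ACTGGTGACGTG was shared by Armcx1 and Armcx6 and stood in 2 windows of all. The Gprasp2 and Bhlhb9 run also stood in 2 windows. Armcx4, the family member before Armcx1 on the chromosome (chrX:134686519-134696757), has a CACGTG and no TGACGT.

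The libraries were first checked against their labels. Xist was at most 1.01 CPM (counts scaled to equal library size) in every day 0 library and averaged 151 ± 27.1 CPM (SD, n = 3) in TX1072, 516 ± 115 in TXdXicB6 and 341 ± 71.1 in TXdXicCast at day 4. Between 0 and 9 allele-specific Xist counts per library fell on the deleted chromosome. All 8 pluripotency markers, Pou5f1 and Sox2 beside naive ones, fell by day 4 in each line. Among them were the naive Klf4 (222 to 4.35 CPM in TX1072) and Prdm14 (167 to 4.32). All 5 formative and primed markers rose in each line, including Fgf5 (0.116 to 134 CPM in TX1072). Markers of mesodermal and contractile cells also moved with the days. In TX1072, T went from 10.6 to 115 CPM, Eomes from 2.92 to 87.7 and Tagln from 0.0856 to 415, whereas the neuronal marker Dcx reached 0.485. All 4 endoderm markers rose in TX1072, led by Foxa2 (0.139 to 12.9 CPM). Of 7 neural markers tested there, 6 rose and 1 fell, with Nes going from 38.5 to 124 CPM. The 3 tested mesoderm markers rose, and of 3 mesenchymal markers Tagln and Acta2 rose and Col1a1 fell. Tagln was 253 CPM in TXdXicB6 and 520 in TXdXicCast at day 4, and the part of these other cell types in the changes below was not tested. In bulk RNA, fewer cells of a type and less RNA per cell cannot be told apart.

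Some libraries stood apart in how many counts could be given to an allele. The share was 17.9% to 20.3% in TX1072 and up to 34.9% in the deletion lines, but it was 5.21% in TXdXicB6 day 0 replicate 1, 9.57% and 20.3% in TXdXicB6 day 2 replicates 2 and 1, and 22.9% in TXdXicCast day 3 replicate 3. The day 0 libraries of TXdXicCast were made, per the study's methods, from partly degraded RNA with milder fragmentation. The day 4 changes of the 7 genes in the deletion lines are therefore also given from day 1, whereas those of neighbours and partners are from day 0 only.

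Armcx1 fell over the time course in all 3 lines. It had 92.4, 108 and 108 CPM in the TX1072 day 0 libraries and 37.1, 42.4 and 55.3 at day 4, and the groups did not overlap. The log2 change was −1.20 ± 0.15 (SE; edgeR's quasi-likelihood test with Benjamini-Hochberg adjustment over 18871 genes, adjusted p = 1.1e-06). In TXdXicB6 the mean went from 57.3 ± 5.03 to 26.3 ± 1.85 CPM (log2 change −1.13 ± 0.13), and in TXdXicCast from 78.0 ± 12.2 to 30.8 ± 3.24 (−1.34 ± 0.13). The drop in TX1072 came between days 1 and 2: the level was 95.3 ± 13.5 CPM at day 1 and 42.1 ± 2.45 at day 2, against 48.7 ± 6.19 at day 3. In the deletion lines the level went on down to day 4, and the change from day 1 was −1.16 in each. None of the 3 lines had a called change at day 1.

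Armcx2, Armcx3 and Armcx6 did the opposite and rose in all 3 lines. Armcx2 had 2.67, 4.08 and 5.45 CPM at day 0 in TX1072 and 73.5, 85.6 and 86.7 at day 4, without overlap. Its log2 change was 4.31 ± 0.18 (edgeR, adjusted p = 8.6e-13), with 3.74 ± 0.12 in TXdXicB6 and 4.00 ± 0.12 in TXdXicCast. Counted from day 1 the deletion lines had 2.42 and 2.48. Armcx2 already stood at 13.1 ± 1.52 CPM at day 1 in TX1072, and it reached 59.7 ± 0.86 and 64.6 ± 5.20 at day 2 in the deletion lines, where TX1072 had 33.0 ± 0.32. The kits of the line sets differed, so these day 2 levels were not compared by a test.

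Armcx3, whose product links mitochondria to the Miro and Trak motor adaptors, went from 0.15, 0.538 and 0.76 CPM at day 0 to 4.71, 7.17 and 10.3 at day 4 in TX1072. The log2 change was 3.87 ± 0.38 there, 3.49 ± 0.23 in TXdXicB6 and 3.46 ± 0.21 in TXdXicCast. Armcx6 went from 0.224, 0.526 and 0.651 CPM to 4.09, 4.28 and 4.40 in TX1072, a log2 change of 3.11 ± 0.30. Its change was 2.85 ± 0.19 in TXdXicB6 and 2.19 ± 0.19 in TXdXicCast. From day 1, all of these changes in the deletion lines remained called, with 2.54 and 2.82 for Armcx3 and 2.18 and 1.95 for Armcx6. All libraries of day 4 lay above all of day 0 for both genes, yet at the end both remained the lowest of the cluster.

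**Figure D1:**
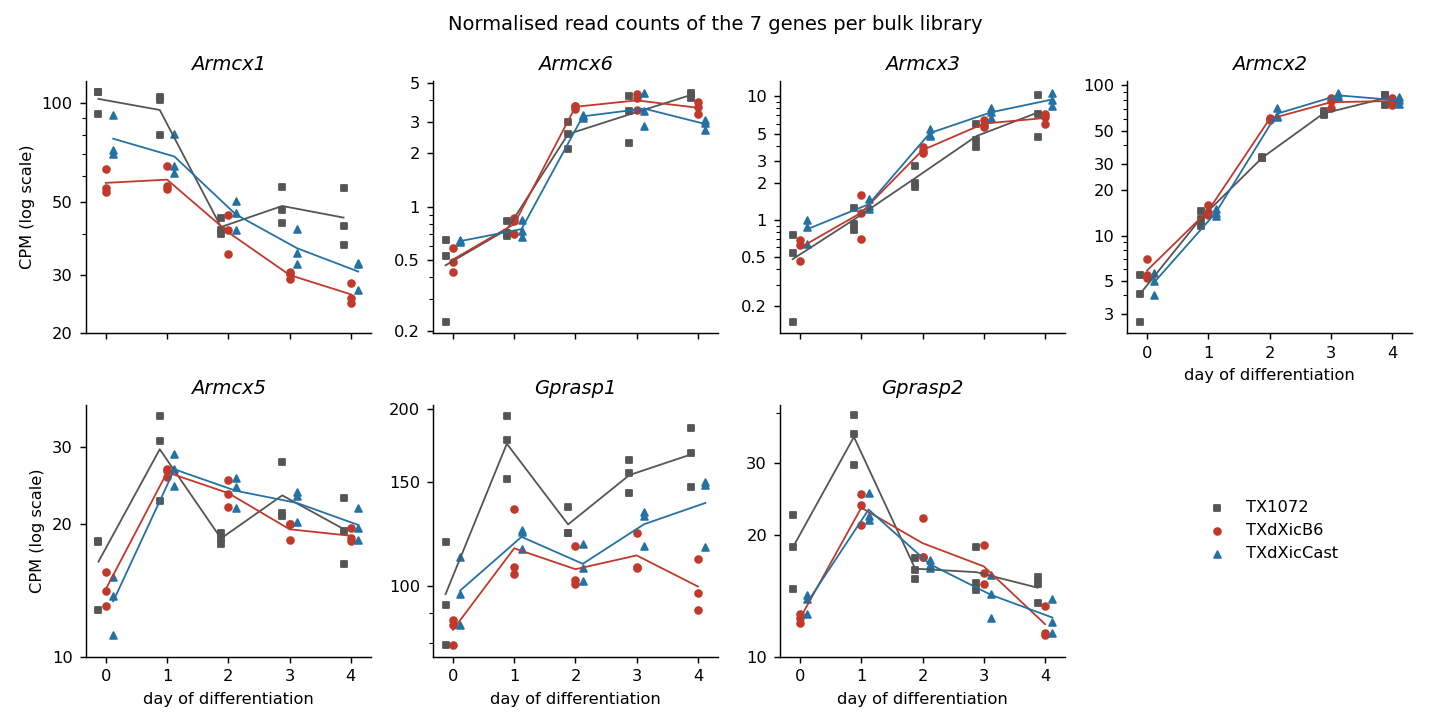
Normalised read counts (CPM, log scale, a separate scale per panel) against day of differentiation for the 7 genes; squares are TX1072, circles TXdXicB6 and triangles TXdXicCast libraries, with lines through the means of 3 libraries. Armcx1 falls from 103 to 44.9 CPM in TX1072, Armcx6, Armcx3 and Armcx2 climb in every line, and Armcx5, Gprasp1 and Gprasp2 peak or step up at day 1.

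The distal genes shared a step at day 1. In TX1072, Gprasp1 went from 79.2, 92.6 and 118 CPM to 152, 177 and 195, and the groups did not overlap. The log2 change was 0.85 ± 0.14 (edgeR, adjusted p = 5.6e-05). Gprasp2 went from 18.6 ± 3.86 to 34.8 ± 4.87 CPM (0.90 ± 0.15) and Armcx5 from 16.4 ± 3.18 to 29.6 ± 6.49 (0.84 ± 0.18). In TXdXicB6 the day 1 changes were 0.46 ± 0.12 for Gprasp1, 0.91 ± 0.12 for Gprasp2 and 0.88 ± 0.11 for Armcx5, and in TXdXicCast 0.30 ± 0.12, 0.76 ± 0.12 and 0.99 ± 0.11. All of these passed the test, where 51.7%, 50.9% and 60.1% of X-linked genes tested were called at day 1 in the 3 lines. The median log2 change of all X-linked genes tested was 0.11, 0.17 and 0.30 at that day, so the Gprasp1 change in TXdXicCast was no larger than that of a typical X-linked gene there. Armcx5 and Gprasp1 share exonic bases at their common start, and the part of these in their likeness was not tested.

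In TX1072 all 3 distal genes were lower at day 2 than at day 1. Gprasp1 had 127 ± 7.62 CPM, Armcx5 18.6 ± 0.51 and Gprasp2 16.5 ± 0.976. Day 2 was not tested against day 1. The median log2 change of all X-linked genes tested, counted from day 0, also went from 0.11 at day 1 to −0.18 at day 2. From day 2 on the levels of the distal genes parted. Gprasp2 stood at 14.8 ± 1.13 CPM at day 4 in TX1072, a log2 change of −0.33 ± 0.15 from day 0 that did not pass the test (adjusted p = 0.067) but did with the replicate number as a block (adjusted p = 0.0304). Armcx5 ended at 19.5 ± 3.33 CPM, a change of 0.24 ± 0.18 (adjusted p = 0.26). Gprasp1 was at 154 ± 10.2 CPM at day 3 and 167 ± 19.1 at day 4, 0.79 ± 0.14 above day 0 (adjusted p = 7.2e-05). In TXdXicCast, Gprasp1 and Armcx5 were also called higher at day 4, by 0.49 ± 0.12 and 0.57 ± 0.11. In TXdXicB6, Armcx5 was called higher by 0.40 ± 0.11, while Gprasp1 changed by 0.24 ± 0.12 with an adjusted p of 0.07, which the replicate block moved to 0.0199. Against day 1 instead of day 0, the log2 change of Armcx5 at day 4 turned to −0.48 in TXdXicB6 and −0.42 in TXdXicCast (edgeR, adjusted p = 0.000413 and 0.00148). That of Gprasp1 was −0.22 in TXdXicB6 and 0.19 in TXdXicCast, where its call was lost (adjusted p = 0.111 and 0.158). Gprasp2, not called from day 0 in either line, was called lower from day 1, with −0.96 and −0.89 (adjusted p = 9.6e-08 and 3.1e-07).

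At day 4, then, 5, 5 and 6 of the 7 genes were called in TX1072, TXdXicB6 and TXdXicCast. The background was high: 70.9%, 71.6% and 75.2% of X-linked genes and 59.8% of all genes in TX1072 were called at that day, so the number called is near that of other X-linked genes. The median log2 change over the 7 genes was 0.79 in TX1072, 0.40 in TXdXicB6 and 0.57 in TXdXicCast, and over all X-linked genes tested −0.22, −0.25 and 0.16. Between the deletion lines Gprasp1 alone was called at day 4, with 91.1, 97.0 and 111 CPM in TXdXicB6 against 117, 148 and 150 in TXdXicCast (log2 difference −0.47 ± 0.12, adjusted p = 0.012). Among X-linked genes 18.5% were called in that comparison. At day 0, where TXdXicCast had the degraded RNA, Armcx1 was lower in TXdXicB6, with a log2 difference of −0.45 ± 0.13 (adjusted p = 0.013) and 21.0% of X-linked genes called. Leaving out TXdXicB6 day 4 replicate 1 or 2, or TXdXicCast day 4 replicate 3, ended the Gprasp1 call with adjusted p of 0.0936, 0.0643 and 0.125.

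Per kb of exon, the order of the levels changed over the time course. At day 0 in TX1072, Armcx1 led with 31.9 CPM per kb, ahead of Gprasp1 with 11.9, Gprasp2 with 4.09, Armcx5 with 3.87, Armcx2 with 0.897, Armcx6 with 0.188 and Armcx3 with 0.136. At day 4, Gprasp1 (20.6), Armcx2 (18.1) and Armcx1 (13.9) formed the upper group, followed by Armcx5 (4.59), Gprasp2 (3.26), Armcx3 (2.09) and Armcx6 (1.71). The library ranges of Gprasp2 and Armcx5 overlapped at day 0 and those of Armcx6 and Armcx3 at both days. At day 4 the range of Armcx2 also overlapped with that of Gprasp1 above it and that of Armcx1 below it, so their order is not resolved.

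Allele-specific counts give the share of each gene's RNA that came from the Xi. Xi here is the chromosome that keeps Xist, and the bulk share averages over all cells, also those that have not begun inactivation. In TX1072, 46 of 272 single cells had no Xist count at day 4. The part of such cells in the bulk shares and in the line differences was not tested. Armcx1 was silenced in both deletion lines. In TXdXicB6 its Xi share was 41.0%, 43.7% and 49.1% at day 0 and 17.0%, 20.0% and 20.8% at day 4. In TXdXicCast it started at 49.0%, 49.2% and 51.4% and ended at 22.5%, 25.2% and 28.7%. The groups did not overlap in either line. The change of the log2 Xi:Xa ratio, where Xa is the active X, was −1.82 ± 0.13 and −1.56 ± 0.11 (edgeR on allele-specific counts, adjusted p = 6.9e-20 and 9.7e-21), and the lines did not differ past the threshold at day 4 (difference −0.26 ± 0.17, adjusted p = 0.29). With single libraries left out, this difference between lines ran from −0.37 to −0.10 and was never called. From day 1 the changes were −2.01 and −1.35. Armcx1 had reached 25.9% ± 0.515 by day 2 in TXdXicCast and stayed there, while in TXdXicB6 it was at 33.6% ± 1.76 at day 2. The day 2 changes of −0.79 ± 0.13 in TXdXicB6 and −1.50 ± 0.10 in TXdXicCast differed by 0.71 ± 0.16 (adjusted p = 0.00034), a difference called in that direction in 7.72% of X-linked genes. At day 1, when neither line had a called change of Armcx1, the lines already differed by 0.40 ± 0.14 (adjusted p = 0.031), and the day 2 difference was not tested from day 1.

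Armcx2 lost Xi share while its total rose. Its Xi share fell from 44.4% ± 9.89 to 21.1% ± 2.14 in TXdXicB6 and from 33.9% ± 4.66 to 20.4% ± 1.08 in TXdXicCast. The Xi:Xa changes were −1.82 ± 0.32 and −1.11 ± 0.25 on the log2 scale, and both passed the test (adjusted p = 4.3e-06 and 0.00037). From day 1 they were −2.12 and −1.75. Multiplying the share by the total, the Xi copy still went up, from an estimated 2.55 ± 0.271 to 16.6 ± 2.23 CPM in TXdXicB6, and the Xa copy from 3.32 ± 1.14 to 62.0 ± 3.60. In TXdXicCast the Xi copy went from 1.68 ± 0.473 to 16.2 ± 1.67 CPM and the Xa copy from 3.23 ± 0.438 to 63.0 ± 2.94. For Armcx1 the Xi copy dropped from 25.5 ± 3.11 to 5.03 ± 0.269 CPM in TXdXicB6 and the Xa copy from 31.7 ± 3.68 to 21.2 ± 2.01. The Armcx2 call in TXdXicCast was lost without day 0 replicate 3 (log2 change −0.82, adjusted p = 0.153). The day 0 libraries of that line held 40, 49 and 128 allele-specific counts.

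**Figure D2:**
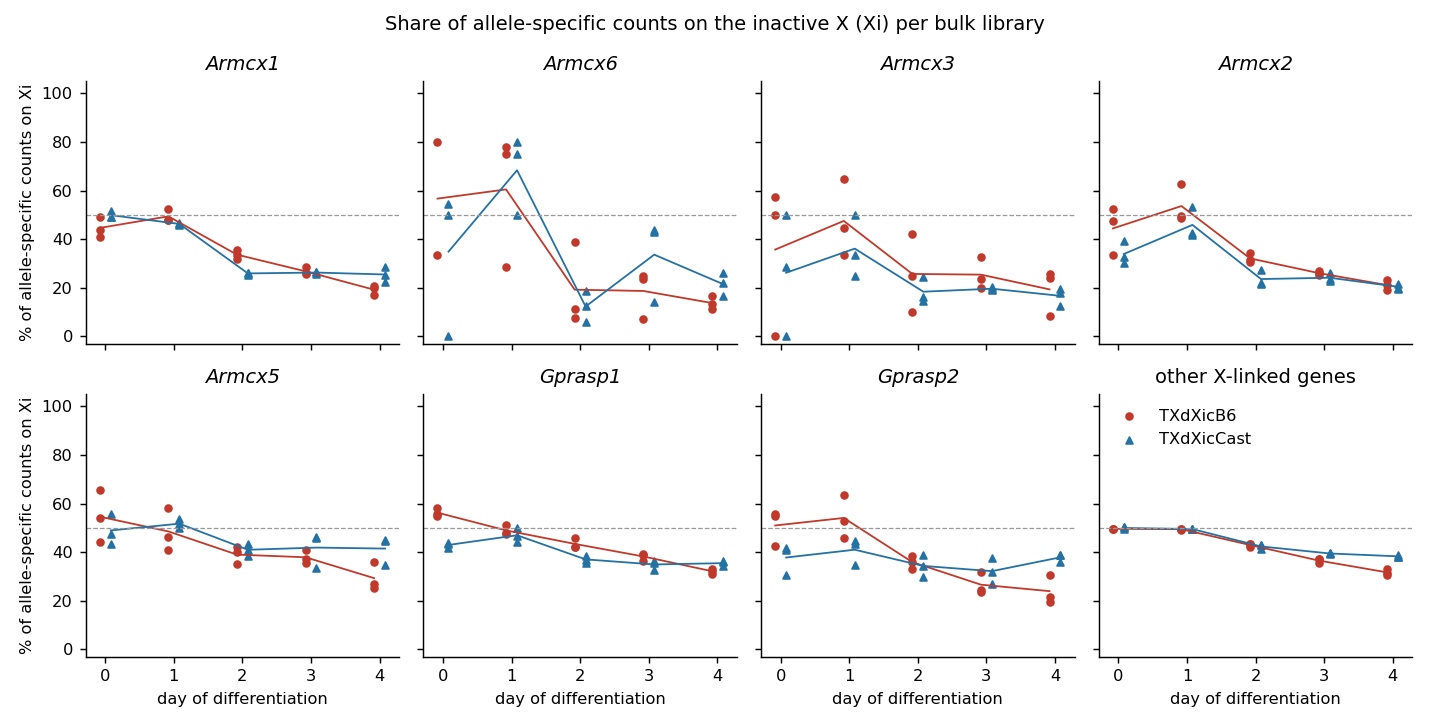
Share of allele-specific counts on the Xi (in percent) against day for the 7 genes and for the other X-linked genes outside the deletion; circles are TXdXicB6 and triangles TXdXicCast libraries, lines join the means of 3, and the dashed line marks 50%. Armcx1 ends between 17.0% and 28.7% and Armcx2 near 20%, below the other X-linked genes at 31.7% and 38.3%, while Gprasp2 and Armcx5 end lower in TXdXicB6 than in TXdXicCast.

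Armcx3 and Armcx6 hold 2 exonic single-nucleotide differences each. At day 0 they had between 0 and 24 allele-specific counts per deletion-line library. Armcx3 had an Xi share of 19.4% ± 9.60 in TXdXicB6 and 16.7% ± 3.52 in TXdXicCast at day 4, and Armcx6 one of 13.8% ± 2.79 and 21.6% ± 4.72. Taken alone, the day 4 ratio was below equality for Armcx3 in both lines (log2 Xi:Xa −1.99 ± 0.33 and −2.24 ± 0.29) and for Armcx6 (−2.58 ± 0.46 and −1.86 ± 0.45), with adjusted p of at most 0.000485. The changes from day 0 did not pass the test, with adjusted p between 0.077 and 0.41. With single libraries left out, that of Armcx3 ran from −2.30 to −0.11 in TXdXicB6 and from −1.94 to 0.0965 in TXdXicCast. In TXdXicCast its adjusted p then went as low as 0.0365 (edgeR), which passes the threshold. With day 1 as the baseline Armcx3 and Armcx6 were both called in TXdXicB6 (−2.14 and −3.14, adjusted p = 0.0215 and 0.00879), and Armcx6 alone of them in TXdXicCast (−2.72, adjusted p = 0.0369). In TX1072 the mean B6 share of Armcx3 was 8.33%, 12.2%, 5.56%, 22.2% and 4.11% on the 5 successive days, from 7, 20, 34, 24 and 102 allele-specific counts over 3 libraries. The log2 B6:Cast ratio was −2.24 ± 1.26 at day 0, which was not called (adjusted p = 0.15), and was called below equality from day 1 (−2.35 ± 0.82, adjusted p = 0.015) through day 4 (−4.19 ± 0.54). Its change from day 0 to day 4 was not called (−1.96 ± 2.43, adjusted p = 0.70). With single libraries left out, that change ran from −2.44 to −0.24. The B6 share of Armcx3 was 80.6% ± 9.60 in TXdXicB6 and 16.7% ± 3.52 in TXdXicCast, the Xa strain leading in each, and the cause of the low TX1072 share was not tested. Whether both polymorphic bases were given to the right allele cannot be seen in counts per gene, and the Xi shares of Armcx3 carry that limit.

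At the distal end the lines differed. Gprasp1 had Xi shares of 54.9%, 55.6% and 58.3% at day 0 in TXdXicB6 and 31.0%, 32.4% and 33.2% at day 4, against 41.8%, 43.4% and 43.7% at day 0 and 34.2%, 35.9% and 36.4% at day 4 in TXdXicCast. Day 4 lay below day 0 without overlap in each line. The Xi:Xa change was −1.44 ± 0.09 in TXdXicB6 and −0.46 ± 0.08 in TXdXicCast on the log2 scale, and the difference of −0.97 ± 0.12 passed the test (adjusted p = 8.8e-10). The starting points differed in the direction of the strains: at day 0 Cast gave more Gprasp1 RNA than B6 in the bulk libraries of all 3 lines, with a log2 Cast:B6 excess that appears as an Xi:Xa of 0.37 ± 0.07 in TXdXicB6, an Xi:Xa of −0.40 ± 0.06 in TXdXicCast and a B6:Cast of −0.41 ± 0.07 in TX1072. The single TX1072 cells did not show this excess at day 0, with a B6 share of 49.5% (211 of 426 UMIs, exact 95% interval 44.7% to 54.4%) against 43.2% in bulk. At day 4 the Xi:Xa ratios themselves were −1.07 ± 0.06 and −0.86 ± 0.05. Measured from day 1, where the shares were 49.0% ± 1.96 and 47.0% ± 2.80, the changes were −1.01 and −0.70 and the difference between lines was −0.32 with an adjusted p of 0.031.

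Gprasp2 had Xi shares of 42.4%, 55.0% and 55.6% at day 0 and 19.5%, 21.7% and 30.7% at day 4 in TXdXicB6, a Xi:Xa change of −1.60 ± 0.31 (adjusted p = 3.4e-05). In TXdXicCast the shares started at 30.8%, 41.1% and 41.6% and ended at 36.0%, 38.7% and 39.0%, and these ranges overlap. The change there was −0.07 ± 0.25 (adjusted p = 0.92), and the difference between lines was −1.53 ± 0.40 (adjusted p = 0.0019). With day 1 as the baseline the changes were −1.83 and −0.18 and their difference −1.65 (adjusted p = 0.00013). The estimated Xi copy of Gprasp2 went from 6.32 ± 0.794 to 2.87 ± 0.622 CPM in TXdXicB6 and from 5.18 ± 1.09 to 4.72 ± 0.275 in TXdXicCast.

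Armcx5 followed the same order. Its Xi share went from 54.6% ± 10.5 to 29.3% ± 5.75 in TXdXicB6 (log2 change −1.36 ± 0.28, adjusted p = 8.9e-05) and from 48.9% ± 6.37 to 41.5% ± 5.69 in TXdXicCast (−0.26 ± 0.23, adjusted p = 0.49). The difference of −1.10 ± 0.36 passed the test (adjusted p = 0.015), but not with day 1 as the baseline (changes of −1.19 and −0.53, difference −0.66, adjusted p = 0.14). It was also lost without TXdXicB6 day 4 replicate 1, TXdXicB6 day 0 replicate 2 or TXdXicCast day 0 replicate 3, with adjusted p of 0.0613, 0.0937 and 0.079. From day 1, Armcx1 gained a called difference of −0.66 (adjusted p = 0.0012), so that the line contrast was not limited to the distal genes under that baseline.

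Set against the chromosome, 5 of 7 genes were called lower in Xi:Xa in TXdXicB6 at day 4, where 59.1% of 518 X-linked genes were, and 3 of 7 in TXdXicCast, where the share was 46.3%. The median change of the 7 genes was −1.60 in TXdXicB6 and −1.11 in TXdXicCast, and that of all X-linked genes tested −1.21 and −0.68. For the difference between the lines, 3 of the 7 genes and 29.7% of X-linked genes were called lower in TXdXicB6, with medians of −0.97 and −0.49. The 3 called genes are the distal ones. The proximal differences were −0.72 ± 0.39 for Armcx2, −0.03 ± 1.12 for Armcx3 and −1.56 ± 1.53 for Armcx6, beside that of Armcx1 above. With errors of this size a difference between the blocks is not shown, and it was not tested. Over the X chromosome outside the deletion, the Xi share ended at 31.7% ± 1.23 in TXdXicB6 and 38.3% ± 0.427 in TXdXicCast.

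In TX1072 the B6:Cast ratio averages over cells that silence either chromosome. Armcx1 was the single member with a called change: its B6 share went from 49.7%, 50.1% and 51.7% to 37.9%, 40.1% and 44.6% (log2 change −0.54 ± 0.11, adjusted p = 0.00016), where 6.03% of X-linked genes were called lower. The B6 share of the X-linked genes together was 51.1% at day 0 and 49.7% at day 4. Gprasp1 had a B6 share of 43.2% ± 1.87 at day 0 and 46.7% ± 0.996 at day 4, and its change of 0.22 ± 0.09 did not pass the test (adjusted p = 0.10).

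The neighbours were measured in the same way. Next to Armcx1, Armcx4 was silenced in both lines, with an Xi:Xa change of −1.80 ± 0.22 in TXdXicB6 and −2.12 ± 0.17 in TXdXicCast and no called difference (adjusted p = 0.47). Its total fell by 1.25 on the log2 scale in TXdXicCast, counted from the day 0 libraries with degraded RNA. This fall was not tested against the other lines or from day 1. Bhlhb9 (chrX:135797594-135891081), which shares exonic bases with Gprasp2, changed by −1.39 ± 0.16 and −0.84 ± 0.13, a difference of −0.55 ± 0.20 (adjusted p = 0.036). Distal of it, Arxes1 changed by −2.18 ± 0.33 and −0.15 ± 0.32 (difference −2.04 ± 0.46, adjusted p = 0.00027) and Arxes2 by −1.95 ± 0.21 and −0.62 ± 0.20 (difference −1.33 ± 0.29). Tceal8, a small transcription elongation factor-like gene, changed by −1.72 ± 0.11 and −1.43 ± 0.08 with no called difference (adjusted p = 0.088), and its relative Tceal9 by −1.47 ± 0.09 and −0.86 ± 0.07 (difference −0.61 ± 0.11). Among the 20 tested genes within 500 kb, 6 were called lower in TXdXicB6 than in TXdXicCast, near the 29.7% of all X-linked genes, the others being Cenpi (−0.75 ± 0.29) and Tceal7 (−3.32 ± 1.05).

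**Figure D3:**
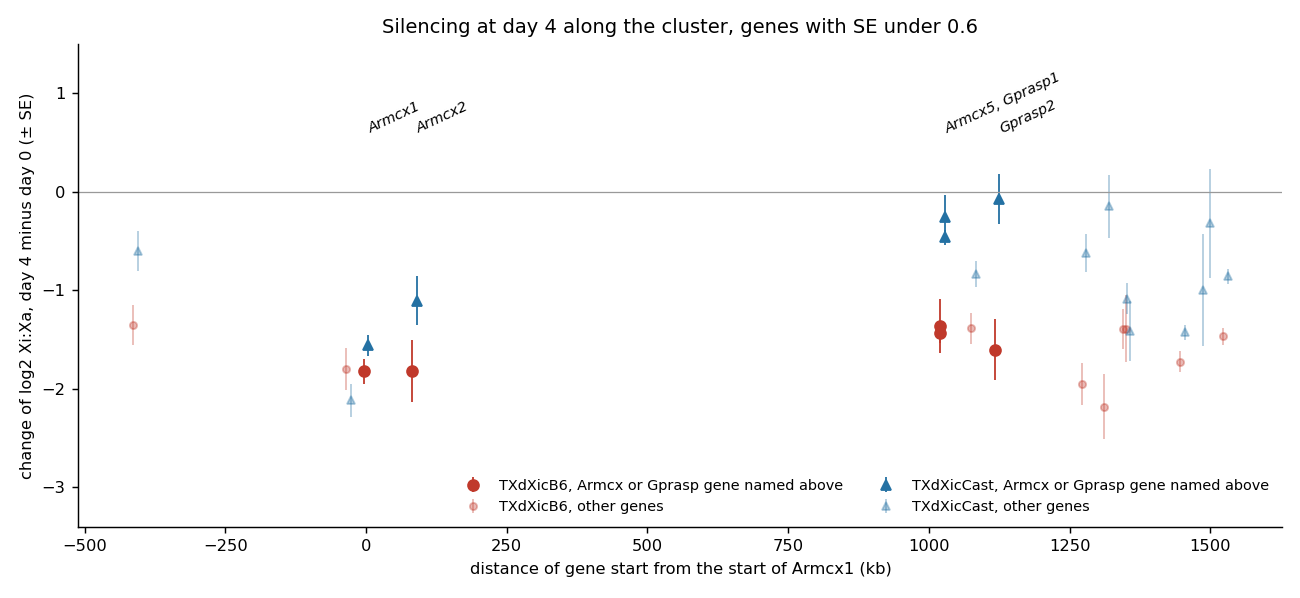
Change of log2 Xi:Xa from day 0 to day 4 (± SE) against the distance of the gene start from that of Armcx1 in kb, shifted by 4 kb left and right so that the lines can be told apart; circles are TXdXicB6, triangles TXdXicCast, and pale symbols are the other tested genes within 500 kb. Genes with an SE of 0.6 or more, Armcx3 and Armcx6 among them, are left out; at the distal end Armcx5, Gprasp1 and Gprasp2 stand at −1.36, −1.44 and −1.60 in TXdXicB6 and nearer to 0 in TXdXicCast.

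Of 74 other genes that start within 500 kb of the cluster, 32 were tested for total counts in TX1072 and 23 were called at day 4, with 10 higher and 13 lower, near the 70.9% of all X-linked genes. In the list of 32 relatives and neighbours, 30 were tested and 11 rose and 10 fell, against the same background. Those lower within 500 kb were Btk, a B-cell kinase (−6.14 ± 0.42), Pramel3, Drp2 (−3.11 ± 0.28), Tmsb15a, Nxf3, Gm15019, Tmem35a, Trmt2b, Cenpi, Rpl36a, Timm8a1, Gla and Hnrnph2 (−0.34 ± 0.10). Those higher were Tceal6 (6.26 ± 1.08), Nxf7 (3.77 ± 0.25), Tcp11x2, Tceal5, Taf7l, Bex2, Tceal9, Tceal8, Tceal7 and Bex3 (0.54 ± 0.16). For the Xi:Xa change in the list of relatives and neighbours, 11 of 20 tested genes were called lower in TXdXicB6 and 11 of 20 in TXdXicCast. The shares among X-linked genes were 59.1% and 46.3%, and the medians of that list were −1.44 and −0.82. The autosomal relative Armc10 was not called in TX1072 (log2 change −0.21 ± 0.09, adjusted p = 0.066).

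Genes for known partners of these proteins are set against the 59.8% of all genes called in TX1072 at day 4. Of 6 mitochondrial transport genes, 4 fell and 1 rose in TX1072 at day 4. The adaptor Trak1 fell by 0.99 on the log2 scale, the motor Kif5b by 0.79, Rhot1 (Miro1) by 0.34 and Trak2 by 0.30, while the fusion protein Mfn2 rose by 0.78. In the deletion lines Mfn2 was not called and had changes of −0.08 and −0.04, and Rhot1 was called higher in TXdXicCast, by 0.38. Of 5 Gprasp partners, 3 rose and 1 fell in TX1072. The huntingtin-associated gene Hap1 fell by 4.52, the hedgehog transducer Smo rose by 1.73 ± 0.13, the delta opioid receptor Oprd1 by 4.02 ± 0.44 and the dopamine receptor Drd2 by 6.56 ± 1.32.

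In single TX1072 cells, levels were summed over 277, 325, 341, 257 and 272 retained cells at days 0 to 4, from single cultures without a replicate. The cells came from the population of bulk replicate 1, so they are no independent sample. Levels are UMIs scaled to the summed UMIs of the day (UPM), with no TMM factor. Armcx1 began at 89.9 UPM (exact 95% binomial interval 86.9 to 92.9), went through 80.7, 40.8 and 49.3 on the following days and ended at 51.5 (49.5 to 53.7). Armcx2 had 6.49, 22.1, 26.6, 60.7 and 90.4 UPM. Gprasp2 had 19.7, 32.0, 15.7, 15.2 and 12.6, so that its day 1 peak was present in this assay too. Gprasp1 went from 83.3 to 103 at day 1 and was highest at day 4 with 122 UPM, whereas its bulk mean was highest at day 1, and Armcx5 from 17.1 to 31.7 and 22.2. These intervals cover counting error only, and they are too narrow, because the UMIs of a gene came in clusters: a cell with any Armcx1 UMI had 16.8 on average at day 0.

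The share of cells with at least 1 UMI also changed with the days. Armcx2 was seen in 11.2% of cells at day 0 (exact binomial 95% interval 7.73% to 15.5%) and in 69.1% (63.3% to 74.6%) at day 4, or 8.66% and 52.6% when each cell was thinned to 40000 UMIs. Armcx3 was seen in 0.361% and 20.2% of cells (12.5% at day 4 when thinned) and Armcx6 in 1.81% and 12.5% (1.08% and 7.72% when thinned). Armcx1 was seen in 75.5% and 61.0% of cells (65.7% and 47.4% when thinned), and Gprasp1 in 72.6% and 76.1% (59.6% and 62.9%). Armcx5 was seen in 32.1% and 33.1% (24.2% and 24.3%) and Gprasp2 in 27.8% and 22.8% (21.3% and 16.9%). Median depth was 138565 UMIs per cell at day 0 and 171158 at day 4. No cell type free of these genes was in the data, so no level of free RNA can be set beside these shares. No capture site shared a cell name with another.

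A cell was given a known Xi where it held over 5 allelic UMIs of Xist, all from one chromosome. There were 40, 78, 61 and 79 such cells with a B6 Xi at days 1 to 4 and 5, 12, 38 and 43 with a Cast Xi. In the B6 Xi cells the Xi share of Armcx1 went from 59.2% (exact 95% interval 47.3% to 70.4%) at day 1 through 31.5% and 8.96% to 3.26% (1.21% to 6.96%) at day 4. Gprasp1 had 59.7% (47.9% to 70.8%), 48.7%, 34.3% and 23.5% (17.2% to 30.7%) over the same days. In Cast Xi cells at day 4 the shares were 0.806% (0.0204% to 4.41%) for Armcx1 and 2.47% for Gprasp1 (2 of 81 UMIs, upper limit 8.64%; 7.69%, or 8 of 104, over all capture sites). In B6 Xi cells the Armcx1 share was thus the lower of both from day 2 on. At day 2 the intervals overlap, with 22.0% to 42.2% for Armcx1 and 39.3% to 58.2% for Gprasp1. Counted by cells, the share with an Xi UMI among cells with any allelic UMI was 14.3% (3.05% to 36.3%) for Armcx1 and 41.7% (22.1% to 63.4%) for Gprasp1 at day 3. At day 4 it was 9.30% (2.59% to 22.1%) and 25% (12.7% to 41.2%), and these intervals overlap on both days. At day 3 Gprasp1 had 34.3% and 34.8% in B6 and Cast Xi cells. With more than 10 Xist UMIs required, the day 4 share of Armcx1 in B6 Xi cells was 1.86% (3 of 161 UMIs), and over all capture sites that in Cast Xi cells was 1.28% (2 of 156). The other genes had between 0 and 18 allele-specific UMIs per day and Xi, and no share is given for them. From UMIs that overlap introns (unspliced RNA) the Xi share of Gprasp1 was 40.7%, 39.7%, 49.6% and 10.8% over days 1 to 4, against 60.8%, 49.6%, 34.5% and 16.5% from the separate table of UMIs that overlap exons, in cells of either Xi. The exact 95% intervals of both shares overlap on each of these days, the nearest to apart being 40.3% to 58.9% (unspliced) and 27.9% to 41.7% at day 3.

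Cells of one day differ in how far inactivation has gone, and 356 cells with a known Xi were therefore ordered by the Xi share of 938 other X-linked genes. In cells at 40% or more on that scale, whose summed share was 48.5%, Armcx1 had an Xi share of 43.8% (36.2% to 51.6%) and Gprasp1 52.8% (46.6% to 58.9%). In cells at 25% to 40%, with a summed share of 32.8%, Armcx1 was at 11.8% (6.88% to 18.4%) and Gprasp1 at 26.8% (20.7% to 33.6%). In cells at 10% to 25%, with 18.2%, Armcx1 was at 1.90% (0.521% to 4.80%) and Gprasp1 at 17.6% (12.1% to 24.3%). Below 10%, 0 of 88 Armcx1 UMIs and 0 of 25 Gprasp1 UMIs were from the Xi, which allows up to 4.11% and 13.7%. In the middle bins, over cells of both strains, the Armcx1 interval lay below the share of the other genes and the Gprasp1 interval held it. For Gprasp1 the pooled values average over strains that differ. In B6 Xi cells Gprasp1 was at 23.4% of 128 UMIs (16.4% to 31.7%) against 33.0% for the other genes in the 25% to 40% bin, and at 26.3% of 95 (17.8% to 36.4%) against 19.04% in the 10% to 25% bin. In Cast Xi cells it was at 33.3% of 66 UMIs (22.2% to 46.0%) against 32.1%, and at 5.71% of 70 (1.58% to 13.99%) against 17.0%. Armcx1 in B6 Xi cells was at 11.1% of 117 UMIs in the upper of these bins and at 3 of 120 in the lower. In Cast Xi cells it was at 3 of 19 UMIs (15.8%, 3.38% to 39.6%) in the upper bin, an interval that holds the 32.1% of the other genes, and at 1 of 90 in the lower. UMIs of one cell are not independent, so all of these intervals are too narrow.

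**Figure D4:**
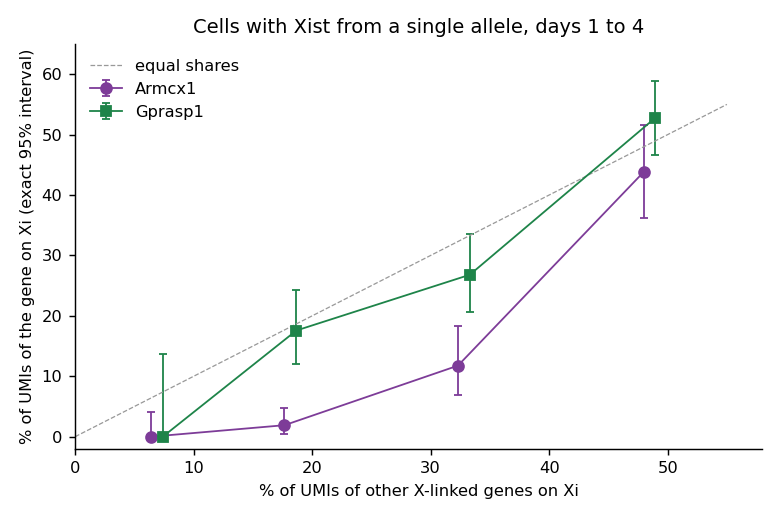
Xi share of Armcx1 (circles) and Gprasp1 (squares) in percent of their allele-specific UMIs, with exact 95% binomial intervals, against the Xi share of the other X-linked genes in the same cells with a known Xi; points are offset by 0.5 to each side and the dashed line marks equal shares. Armcx1 lies under the line at 11.8% and 1.90% in the middle bins, and Gprasp1 lies nearer to it at 26.8% and 17.6%, over cells of both strains.

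Across the 15 TX1072 bulk libraries, which share days and normalisation, the rising genes were alike. Pearson's r of log2 CPM was 0.96 between Armcx2 and Armcx3, 0.95 between Armcx2 and Armcx6 and 0.93 between Armcx3 and Armcx6. Armcx1 ran against them, with −0.88 for Armcx6, −0.86 for Armcx2 and −0.76 for Armcx3. Armcx5 had 0.72 with Gprasp1 and 0.70 with Gprasp2, while Gprasp1 and Gprasp2 had 0.37. Gprasp1 had 0.64 with Armcx2, 0.60 with Armcx3 and 0.49 with Armcx6, and Gprasp2 had 0.69 with Armcx1, so for both the highest value was that with Armcx5. Among 14375 genes with a mean of at least 1 CPM, the closest to Armcx2 was Tro, an X-linked gene of the trophinin family, with 0.99, and to Armcx3 it was Pgr with 0.98. The closest to Armcx6 was Chd6 with 0.98, to Armcx1 Gm20342 with 0.97, to Gprasp2 Zfp740 with 0.95, to Gprasp1 Krcc1 with 0.93 and to Armcx5 Ywhaq with 0.90. No gene of the cluster was among the 2 closest to another one. Within a day, Spearman correlations across single cells stayed between −0.0764 and 0.223 for all pairs of these genes, at sparse counts.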

How the data were processed

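Bulk RNA-seq was analysed in 45 libraries (15 of TX1072, 30 of the deletion lines) and single-cell RNA-seq in 5 cultures. The authors aligned reads with STAR 2.5.2b to mm10 with strain differences masked, split them by allele with SNPsplit, and deposited gene counts from featureCounts as total, B6 and Cast count tables; the single-cell tables hold deposited UMI counts. Each day 1 set of cells is listed as 2 samples, and its UMI counts were taken as pooled over both. No column was left unmapped (0 per-sample columns matched no sample). The 92 ERCC rows held 0 counts in bulk, and ERCC took 0.286% of UMIs. TX1072 libraries were made with another kit and shorter reads than those of the deletion lines and were fitted apart.

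Counts were tested with edgeR 4.0.16 (R 4.3.3; quasi-likelihood, filterByExpr, TMM factors from autosomal genes, two-sided, Benjamini-Hochberg threshold 0.05 over all genes tested), and allele-specific counts with a term for each library. All 7 genes passed the filters, of 18871 and 13510 genes tested in TX1072 and 19885 and 15280 in the deletion lines. CPM are counts over the same factors. Xi shares are sums of allele-specific counts; exact Clopper-Pearson 95% intervals cover counting error only, and UMIs of one cell are not independent. Cells are those the study retained, 1472 of 2000 capture sites.

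The fits were tested on simulated counts with 200 changed genes. For TX1072 total counts (18871 genes), 51% of 2-fold and 87% of 4-fold changes were recovered with 6.12% false calls, and for TXdXicB6 allele counts (15280 genes) 57% and 67% with 8.82% false calls.

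Each replicate number marks a differentiation started on a different day, per the study's methods. Deviations from group means had a median correlation of 0.232 between samples of one number in TX1072 (−0.126 otherwise) and 0.355 within a deletion line (−0.171 otherwise), and the number was added as a block in an alternative. Other alternatives were DESeq2 1.42.0, other size factors, no filter, day 1 as the baseline, each library left out, all capture sites, more than 10 Xist UMIs, thinning, and spliced or unspliced UMIs. The spliced counts held 0 allele-specific UMIs of Armcx1 at day 4 in cells with a known Xi, so they gave no share there. They also held 0 UMIs of Armcx2 on days 0 to 3 and 0 of Gprasp2 on days 1 to 4, unlike the main counts.

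The 7 genes, neighbours, partners and markers were chosen with earlier results of these data known. Genes within 500 kb are named where called in TX1072, and for likeness the closest of 2 per gene. Promoter sequences are from RefSeq (GRCm38.p6).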

Additional observations from a re-analysis of the deposited data

Results flagged for a closer look

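The change of the log2 Xi:Xa ratio from day 0 differed between the deletion lines (TXdXicB6 minus TXdXicCast) by edgeR's test of the difference itself in 9 of 28 tests (7 genes on 4 days), each with 3 libraries per line and day. Among X-linked genes 16.6%, 19.3%, 25.5% and 34.4% were called in either direction on days 1 to 4, so a share of this order is common on the chromosome. For Gprasp1 the difference was −0.66 on day 1 (adjusted p = 2.72e-05), −0.38 on day 2 (0.0249), −0.56 on day 3 (0.00028) and −0.97 on day 4 (8.78e-10). Gprasp1 was thus called on each of these days when counted from day 0. On days 1 to 3 its Xi:Xa ratio itself was lower in TXdXicCast. That ratio was −0.16, −0.77 and −0.88 (log2) there and −0.06, −0.38 and −0.68 in TXdXicB6. The differences at days 2 and 3 were not tested from day 1. For Gprasp2 the difference from day 0 was −1.03 at day 3 (adjusted p = 0.0464) and −1.53 at day 4 (0.00187), and for Armcx5 −1.10 at day 4 (0.0149). Armcx1 differed the other way, by 0.40 at day 1 (adjusted p = 0.0313) and 0.71 at day 2 (0.000341). With day 1 as the baseline the day 4 differences were −0.32 for Gprasp1 (adjusted p = 0.0313), −1.65 for Gprasp2 (0.000134), −0.66 for Armcx5 (0.144, no longer called) and −0.66 for Armcx1 (0.00125), which then went the same way as the distal genes. All 9 use the day 0 libraries, those of TXdXicCast with degraded RNA among them, and the strain of the Xi, the clone and the line cannot be told apart.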

How the results depend on the processing

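Of 56 log2 changes of the 7 genes at day 4, 46 kept their direction and 34 their call in every setting run. Between the deletion lines 2 genes were called by DESeq2 in place of 1, and 0 to 1 with single libraries left out. The near-zero difference of Armcx2 between the lines turned from negative to 0.00698 (DESeq2), 0.0134 (TMM over all genes), 0.00726 (DESeq2 size factors) and 0.00483 (no filter). With day 1 as the baseline, the day 4 changes of Armcx5 became −0.48 in TXdXicB6 and −0.42 in TXdXicCast and that of Gprasp1 −0.22 in TXdXicB6, and 6 and 6 genes were called for totals, 7 and 4 for Xi:Xa and 3 for the line difference. With the replicate block, 6, 6 and 6 genes were called in TX1072, TXdXicB6 and TXdXicCast, Gprasp2 (adjusted p = 0.0304) and Gprasp1 (0.0199) being added, and the block changed no other call. With single libraries left out, counts were 5 to 6, 5 to 5 and 6 to 6, and for Xi:Xa 5 to 5 in TXdXicB6, 2 to 4 in TXdXicCast and 2 to 3 for the difference. Directions then turned within −0.0509 to 0.0359 (Armcx2) and −0.128 to 0.0263 (Gprasp2) between lines, −1.14 to 2.06 for Armcx6 B6:Cast in TX1072, −1.94 to 0.0965 (Armcx3) and −0.193 to 0.0553 (Gprasp2) for Xi:Xa in TXdXicCast, and −1.60 to 1.37 (Armcx3) and −2.76 to 0.0203 (Armcx6) for the line difference. In single cells the day 4 share of cells with a UMI was 51.5%, 62.5% and 70.0% over all capture sites and 47.4%, 52.6% and 62.9% when thinned, for Armcx1, Armcx2 and Gprasp1, and the unspliced Xi share of Gprasp1 was 10.8%. The causes were not tested. Allele depth limits Armcx3 and Armcx6.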
